A study of Mus musculus with 9 samples.

Results

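The comparison covers 3 arrays of RAW 264.7 macrophages labelled as over-expressing CstF-64 constitutively and 3 arrays of untreated RAW 264.7 macrophages, 6 of the 9 arrays of the series. The arrays were taken by their titles, which carry the numbers 1 to 3 in each group. RAW 264.7 is a mouse macrophage line derived from a virus-induced tumour, and total RNA was hybridised to an Affymetrix mouse expression array, 1 array per sample. The untreated group received no agent and the CstF-64 group is described by its over-expression alone. The 3 other arrays of the series, RAW cells given lipopolysaccharide (LPS, a component of bacterial outer membranes) at 100 ng/ml for 18 h, entered the fit and are used here only for a direct comparison. Not given in the labels are the construct, its promoter, whether the CstF-64 cells were 1 clone or a pool, and whether replicates were separate cultures. No array of cells with an empty construct was analysed here, so an effect of CstF-64 and any other difference between the cell populations cannot be told apart. The description runs over 19667 probe sets of 11957 autosomal genes, of 22626 probe sets tested, with a gene represented by its brightest probe set unless a probe set is named.

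CstF-64 is the RNA-binding subunit of the cleavage stimulation factor. The factor sits on the GU-rich sequence downstream of a polyadenylation signal and, together with the cleavage and polyadenylation specificity factor on the AAUAAA signal, directs where a pre-mRNA is cut and receives its poly(A) tail. Where a gene holds several such signals, the amount of CstF-64 can shift which of them is used, and in lymphocytes this is known for the immunoglobulin heavy chain mRNA. The comparison addresses which transcripts differ between cells labelled as over-expressing CstF-64 and untreated cells, neither of which received LPS.

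All 12 macrophage markers examined (among them Cd68, Csf1r, Adgre1 and Lyz2) were above background on every untreated and every CstF-64 array, and their summed intensity was 18338 to 24709 on the untreated and 20049 to 24018 on the CstF-64 arrays. Background here means at most 31.2, the highest value of the 27 Bacillus control probe sets. Of the 10 lymphocyte markers 9 were at or below that level on all untreated arrays and 8 on all CstF-64 arrays, and of the 10 fibroblast and endothelial markers 7 were in both groups. Of 6 osteoclast markers, 5 were above background on all untreated arrays and 4 on all CstF-64 arrays. Their summed intensity ran from 1067 to 1866 on the untreated arrays and from 1547 to 3305 on the CstF-64 arrays. Of the 10 granulocyte and mast cell markers, 6 were at or below background on all untreated arrays and 5 on all CstF-64 arrays. No marker of these 5 lists was called. Array medians lay between 51.1 and 54.2. Across all probe sets, CstF-64 arrays 2 and 3 correlated at r = 0.989, whereas CstF-64 array 1 correlated with them at 0.975 to 0.976 and with the untreated arrays at 0.976 to 0.981. The untreated arrays correlated with each other at 0.982 to 0.986. CstF-64 array 1 thus stood apart from the other arrays of its own group, and the calls are given with and without it.

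The transcript of CstF-64 was not higher on the arrays labelled CstF-64. Cstf2, the X-linked gene of CstF-64, read 397.8, 363.1 and 372.2 on untreated arrays 1 to 3 and 317.9, 361.5 and 394.5 on CstF-64 arrays 1 to 3 with its brighter probe set. The groups overlapped (log2 change -0.08, SE 0.13, limma adjusted p = 1.00, two-sided exact permutation p = 0.4, where 0.1 is the smallest that 3 against 3 arrays allow). With the dimmer probe set the arrays read 114.7, 100.2 and 134.1 untreated and 97.1, 85.4 and 80.4 in the CstF-64 group. The CstF-64 values were the lower ones without overlap (log2 -0.36, limma adjusted p = 0.763, two-sided exact permutation p = 0.1). Neither the construct nor the positions of the probes are given in the sources used here, and a transcript lacking the probed stretch would not be read. "CstF-64 arrays" therefore names the label. The other members of the complex were not called either. Cstf2t, the autosomal paralogue tau-CstF-64, read 253.5, 279.9 and 271.3 untreated and 268.2, 248.3 and 264.3 in the CstF-64 group (log2 -0.04). Cstf3, the scaffold subunit CstF-77, read 417, 380.6 and 323.2 against 241.1, 323.5 and 275, a log2 difference of -0.40 with an adjusted p of 0.662. Cstf1, the WD-repeat subunit CstF-50, had a log2 difference of -0.16 (adjusted p = 0.959). Of 19 other cleavage and polyadenylation factors none was called, and their median log2 change was 0.01. The smallest p among them was that of Cpsf2, a subunit of the specificity factor (log2 -0.46, adjusted p = 0.608).

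Few transcripts differed between the groups. Of 22626 probe sets, 23 rose and 33 fell at an adjusted p of 0.05, which is 0.248% of those tested, and 1460 had an unadjusted p below 0.05. Among autosomal probe sets 18 rose (0.0915% of 19667) and 24 fell (0.122%). They belonged to 34 genes, of which 28 were called on their brightest probe set, 11 upward (0.092% of 11957 genes) and 17 downward (0.142%). The remaining 6 genes were called on a dimmer probe set alone. In all 42 called autosomal probe sets the 3 CstF-64 arrays and the 3 untreated arrays did not overlap, against 13.1% of all autosomal probe sets. The log2 change of the autosomal genes had a median of 0.01 and an SD of 0.26, and 95.3% of the genes lay within 0.5 log2 units of 0.

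The number of calls rested on single arrays. Without CstF-64 array 1 there were 110 calls, and without CstF-64 array 2 or 3 there were 24 and 20. Without untreated arrays 1, 2 and 3 in turn the counts were 42, 18 and 28. Of the 56 probe sets, 16 were called in each of these 6 fits, 9 of them autosomal, and these 9 represent 8 genes: Rbpms, Rarb, Cbr4 and Ambp, which rose, and Cd36, Acot1, Svil and Lpar1, which fell. With weights that count arrays standing apart less, 106 probe sets rose and 124 fell. The lowest weight went to LPS array 1 (0.25), which enters the estimate of the spread, and the next to CstF-64 array 1 (0.47).

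**Figure D1:**
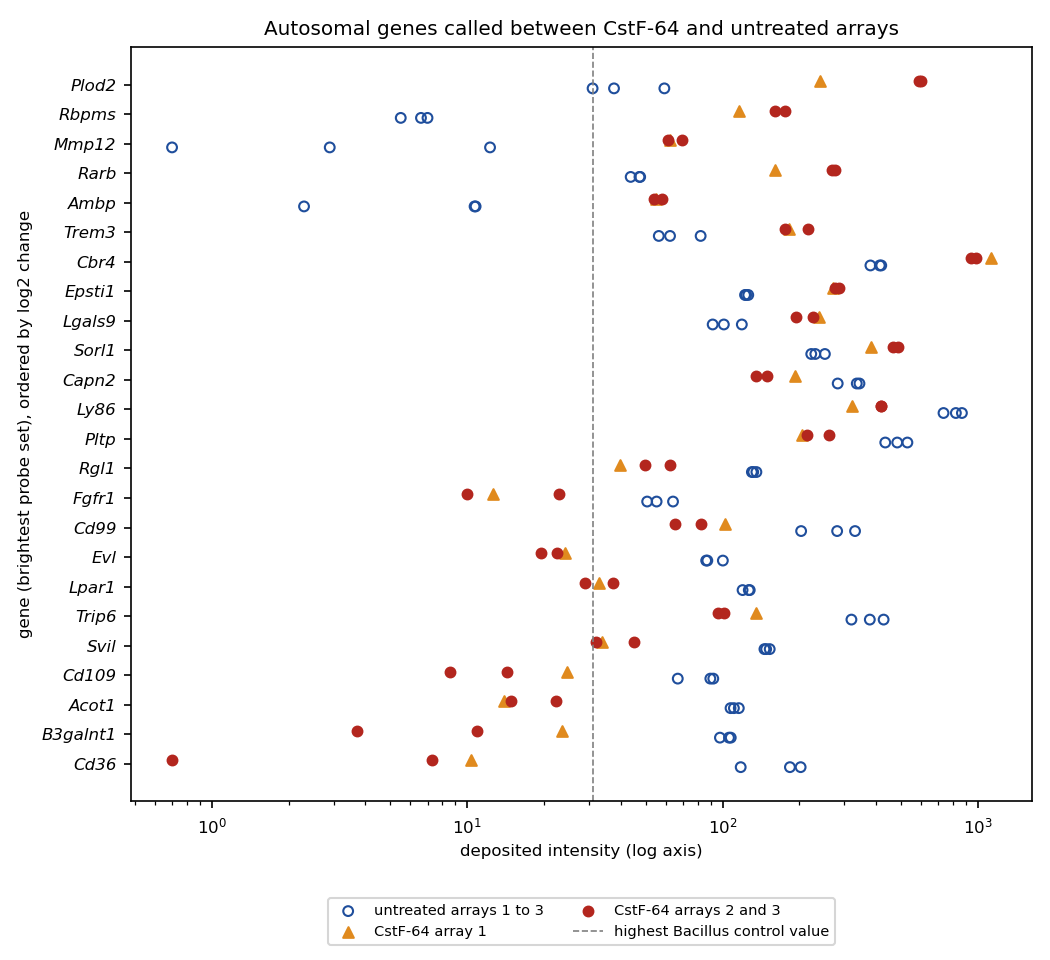
Deposited intensity (log axis) of the 24 autosomal genes that were called on their brightest probe set, did not overlap between the groups and exceeded background in the brighter group. Open circles are the untreated arrays, triangles CstF-64 array 1 and filled circles CstF-64 arrays 2 and 3, and the dashed line is the highest Bacillus control value, 31.2. The 10 genes at the top rose, the 14 at the bottom fell, and for Plod2 and Rarb array 1 lies between the untreated arrays and arrays 2 and 3.

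An RNA-binding protein was among the genes that rose. Rbpms, a protein with 1 RNA recognition motif that binds CAC-containing RNA and steers splicing in muscle, read 5.5, 7 and 6.6 on the untreated arrays and 115.7, 175.5 and 160.6 on the CstF-64 arrays. All untreated values were below background and all CstF-64 values well above it, a rise of at least 4.75-fold (log2 3.06, SE 0.18, adjusted p = 0.00035). The call held without any single array, with an adjusted p of at most 0.00599. Rbpms was the only one of 43 measured splicing factors and hnRNPs to be called. Of the 43, 29 had a log2 change below 0 (median -0.06). Among all autosomal genes 0.092% were called higher and 0.142% lower, and 6217 of 11957 had a log2 change above 0.

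Of 34 genes of matrix, proteases and their inhibitors, 3 rose and none fell, beside 0.092% and 0.142% of all autosomal genes. The median log2 change of the list was 0.07 (0.04 without CstF-64 array 1) beside 0.01 for all autosomal genes. Plod2, the lysyl hydroxylase of collagen telopeptides, read 31, 37.6 and 59.2 on the untreated arrays and 241, 600 and 587.8 on the CstF-64 arrays. Every CstF-64 array was above every untreated array, and array 1 was the lowest of the 3 (log2 3.06, SE 0.40, adjusted p = 0.0141). Its other probe set gave a log2 change of 3.64 (adjusted p = 0.0141). Mmp12, the macrophage elastase, was below background on the untreated arrays, at 0.7, 2.9 and 12.3, and read 62.1, 69.3 and 61.2 on the CstF-64 arrays, at least 2.05-fold higher (adjusted p = 0.0303). The 3 CstF-64 arrays lay close together for this gene. Lgals9, the beta-galactoside-binding lectin galectin-9, went from 119, 91.5 and 101.2 to 237.7, 194.2 and 225.3 (log2 0.99, SE 0.13, adjusted p = 0.0134). Adamts1, a proteoglycan-cleaving protease, narrowly missed the threshold, with 21.5, 34.7 and 26.9 against 99, 81.3 and 83.3 (log2 1.32, adjusted p = 0.058). The calls in this list depended on single arrays. That of Plod2 was lost without CstF-64 array 2 or 3 or untreated array 1 or 2 (adjusted p up to 0.0887), that of Mmp12 without any single array other than untreated array 3 (up to 0.163), and that of Lgals9 without CstF-64 array 3 or untreated array 2 or 3 (up to 0.0842) and with the 6 arrays fitted alone (0.0528). Over the leave-one-out fits, 0 to 3 genes of the list were called higher. The 3 called without CstF-64 array 1 did not include Mmp12 (adjusted p = 0.0583).

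Rarb, the retinoic acid receptor beta, a ligand-activated transcription factor whose own gene is a known target of retinoic acid, rose. It read 47.6, 47.3 and 43.7 on the untreated arrays and 160.4, 268.5 and 275.6 on the CstF-64 arrays. The groups were well apart, with array 1 the lowest of the CstF-64 group (log2 2.03, SE 0.21, adjusted p = 0.00447), and the call held without any single array (adjusted p at most 0.0353). The bases before its transcription start are shown because they hold a match to a retinoic acid response element, searched as the 2 half-sites GTTCA and AGTTCA with any 5 bases between them, on both strands of the 250 bases before the start. The match begins 52 bases before the start, and 9 of 32851 RefSeq promoter windows of this length hold one (0.0274%). The window lies at chr14:16575477-16575726 on the minus strand of GRCm38.p6 and is printed in the direction of the gene, from RefSeq, with the match in capitals.
Rarb: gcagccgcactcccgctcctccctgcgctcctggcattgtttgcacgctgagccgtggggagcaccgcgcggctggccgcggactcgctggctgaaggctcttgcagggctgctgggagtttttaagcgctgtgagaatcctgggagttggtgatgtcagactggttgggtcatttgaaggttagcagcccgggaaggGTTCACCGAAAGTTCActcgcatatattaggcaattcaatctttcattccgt
Among the 34 called autosomal genes 25 had a promoter window in the table, and Rarb was the 1 gene of these with this motif. The half-sites were searched without variant letters, in the form that Rarb itself holds. Its match and the rarity of the motif are therefore description and not independent evidence. A match describes the letters and not whether a receptor binds there.

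Rarb was counted among 26 genes of retinoid, LXR and PPAR receptors, their targets and lipid efflux. Of these 1 rose and 2 fell, beside 0.092% and 0.142% of all autosomal genes. The median log2 change of the list was 0.01 (0.14 without CstF-64 array 1). The falls were those of Acot1 and Abcd2. Acot1, a cytosolic acyl-CoA thioesterase and known target of the fatty acid receptor PPAR alpha, fell from 115.8, 107.5 and 110.8 to 13.9, 14.8 and 22.3. All CstF-64 values were below background, so that the fall was at least 3.57-fold (log2 -2.06, SE 0.22, adjusted p = 0.0045), and the call held without any single array (at most 0.0353). Abcd2, a peroxisomal transporter of fatty acids, was called (adjusted p = 0.0427) but lay at or below background in both groups, at 20.7, 25.7 and 30 untreated and 2.5, 8.3 and 9.4 in the CstF-64 group, and no fold is given. Fabp4, the fatty acid-binding protein of adipocytes and macrophages, read 37.6, 34.7 and 43.7 untreated and 229.4, 66.2 and 101.4 in the CstF-64 group. The groups did not overlap, but the CstF-64 arrays were spread over more than the distance between the groups (log2 1.33, adjusted p = 0.364). Pltp, the phospholipid transfer protein, fell from 433.6, 529.3 and 483 to 203.9, 260.9 and 214.9 (log2 -1.05, SE 0.13, adjusted p = 0.01). Its call was lost without CstF-64 array 3 or untreated array 2 or 3 (up to 0.0784).

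Cd36, the scavenger receptor that takes up oxidised lipoprotein and fatty acids, fell below background. It read 117.8, 202.2 and 183.6 on the untreated arrays and 10.4, 0.7 and 7.3 on the CstF-64 arrays, at least 5.24-fold lower (log2 -3.24, SE 0.24, adjusted p = 0.000612), and the call held without any single array (at most 0.00867). It was the 1 called gene of 39 of macrophage identity and growth factor receptors, whose median log2 change was -0.15. Among all autosomal genes 0.142% were called lower and 0.092% higher, with a median of 0.01. Adgre1, the macrophage surface protein F4/80, read 416.3, 608.1 and 507.5 untreated and 230.6, 209.5 and 222.8 in the CstF-64 group, without overlap and without passing the threshold (log2 -1.15, adjusted p = 0.0777). Among 23 Toll-like receptors and other LPS sensing genes 1 fell and none rose (median 0.02, and -0.04 without CstF-64 array 1). This was Ly86, or MD-1, the secreted partner of the Toll-like receptor homologue RP105, with 865.2, 733 and 819.3 against 320.9, 417.2 and 417.2 (log2 -1.05, SE 0.14, adjusted p = 0.0146). Every CstF-64 value was below every untreated value, but the call was lost without CstF-64 array 2 or 3 or any untreated array (up to 0.0829).

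Further genes that rose have no list in common. Cbr4, a mitochondrial carbonyl reductase, rose from 412.7, 418.2 and 379.3 to 1125.1, 939.2 and 982.6. The 3 arrays of each group lay close together (log2 1.30, SE 0.11, adjusted p = 0.0013), and the call held without any single array (at most 0.0131). Ambp, the precursor of alpha-1-microglobulin and bikunin, was below background on the untreated arrays, at 10.8, 2.3 and 10.7, and read 55.1, 58.2 and 53.7 on the CstF-64 arrays, at least 1.78-fold higher (adjusted p = 0.00386). That call also held throughout (at most 0.0238). Trem3, an activating receptor of myeloid cells that signals through DAP12, rose from 82.1, 62.3 and 56.3 to 181.8, 175.2 and 216.9 (log2 1.36, SE 0.17, adjusted p = 0.0121). Its call was lost without CstF-64 array 2 or 3 or untreated array 2 or 3 (up to 0.0835). Epsti1, an interferon-inducible gene, rose from 122.5, 123.8 and 126.1 to 271.5, 286.9 and 276.3 (log2 1.09, SE 0.15, adjusted p = 0.0197). The spread within each group was small, yet the call was lost without any single array other than CstF-64 array 1 (up to 0.116). It was also lost with the mean of its probe sets (0.0850), and the log2 changes of the others were 1.22 and 0.21. Sorl1, a sorting receptor of the endosome, rose from 230.8, 251.6 and 222.5 to 382.8, 465.1 and 486 (log2 0.88, SE 0.14, adjusted p = 0.0358). Its call was lost without any single array other than CstF-64 array 1 (up to 0.201), with the 6 arrays alone (0.0538) and with the mean of its probe sets (0.178).

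Of 49 genes of the actin cytoskeleton and motility 3 fell and none rose, while the median of the list was 0.00. Over all autosomal genes 0.142% were called lower and 0.092% higher. Svil, or supervillin, which ties actin and myosin to the membrane, fell from 145.9, 153 and 148.2 to 33.7, 45.2 and 32.1 (log2 -1.71, SE 0.16, adjusted p = 0.0033). The untreated arrays differed little, and the call held without any single array (at most 0.0302). Evl, an Ena/VASP protein that promotes actin filament elongation, fell from 86.3, 87.2 and 100.3 to 24.2, 22.4 and 19.4, all below background (at least 2.92-fold lower, adjusted p = 0.0195). Capn2, the catalytic subunit of m-calpain, a protease that cuts adhesion proteins, read 282.4, 343.6 and 335.4 untreated and 193, 134.7 and 148.9 in the CstF-64 group (log2 -0.97, SE 0.15, adjusted p = 0.0312). Trip6, a LIM protein of focal adhesions, fell from 319.6, 377.2 and 427.2 to 135.3, 96.2 and 101.6 (log2 -1.65, SE 0.18, adjusted p = 0.00597). For these genes array 1 was the CstF-64 array nearest to the untreated arrays, other than for Svil. The calls of Evl and Capn2 were each lost without any single array other than CstF-64 array 1 (up to 0.126 and 0.174), that of Capn2 also with the 6 arrays alone (0.102), and that of Trip6 without untreated array 2 (0.0505). Over the leave-one-out fits 1 to 3 genes of the list were called lower.

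Among the other genes that fell was Lpar1, a G protein-coupled receptor of lysophosphatidic acid, which went from 127.8, 126.7 and 119.8 to 32.9, 37.1 and 28.9 (log2 -1.59, SE 0.13, adjusted p = 0.0013) and was called without any single array (at most 0.017). It was the 1 called gene of 16 in lysophosphatidic acid and sphingolipid signalling, whose median was -0.03 (-0.10 without CstF-64 array 1). The share called lower over all autosomal genes was 0.142%. Plpp3, which degrades lysophosphatidic acid, read 18.1, 24.9 and 5.3 untreated and 64.2, 111.9 and 73 in the CstF-64 group on its brightest probe set (log2 1.75, adjusted p = 0.0551) and was called on a dimmer one (log2 2.06, adjusted p = 0.0141). Rgl1, an exchange factor for the small GTPase Ral, fell from 135.7, 131.9 and 130.3 to 39.7, 49.5 and 62.3 (log2 -1.21, SE 0.16, adjusted p = 0.0161). It was the 1 called gene of 35 RAB and RAL GTPases and their exchange factors (median 0.02). Fgfr1, a fibroblast growth factor receptor, fell from 50.7, 64 and 55.2 to 12.6, 23 and 10, at least 1.81-fold lower (adjusted p = 0.0358). The call of Rgl1 was lost without CstF-64 array 2 or any untreated array (up to 0.0925) and with the mean of its probe sets (0.135). That of Fgfr1 was lost without any single array other than CstF-64 array 2 (up to 0.187) and with the 6 arrays alone (0.0810).

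Cd99, a glycoprotein through which leukocytes cross endothelium, fell from 203.1, 281 and 330.2 to 102.4, 82.3 and 65.2 (log2 -1.55, SE 0.19, adjusted p = 0.0115). Its other probe sets gave -1.43 (adjusted p = 0.0195) and -1.05 (0.0869). Cd109, a glycosylphosphatidylinositol-anchored protein that binds transforming growth factor beta, fell from 66.8, 92 and 89.6 to 24.6, 8.6 and 14.3, below background throughout (at least 2.63-fold lower, adjusted p = 0.0141). Both calls were lost without CstF-64 array 2 or 3 or untreated array 2 or 3 (up to 0.0835 and 0.0908) and with the 6 arrays alone (0.0528 and 0.0509). B3galnt1, the transferase that makes globoside, fell from 106, 107.7 and 97.7 to 23.5, 3.7 and 10.9, at least 3.32-fold lower (log2 -2.26, SE 0.26, adjusted p = 0.00725). It lost the call without CstF-64 array 3 or untreated array 2 (up to 0.0569). It was the 1 called gene of 22 sialyltransferases and glycosylation enzymes, of which 19 had a log2 change below 0 (median -0.12). Over all autosomal genes 0.142% were called lower, and 6217 of 11957 had a log2 change above 0. St3gal6, a sialyltransferase that caps galactose, read 252, 276.7 and 315.2 untreated and 148, 75.2 and 77 in the CstF-64 group (log2 -1.43, adjusted p = 0.18), and a dimmer probe set was called (log2 -1.46, adjusted p = 0.0163). Vopp1 likewise rose, and Eps8 and Olfm1 fell, on a dimmer probe set alone. Frk was called higher on a dimmer probe set alone, at 0.4, 0.7 and 0.4 untreated and 6.8, 7.4 and 7.5 in the CstF-64 group, all far below background. Nrgn, which was called higher, and Tnfrsf17 and Lamb2, which were called lower, had no group mean above background.

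Because CstF-64 acts in choosing mRNA 3′ ends, and alternative ends can be read by different probe sets, genes whose probe sets changed unequally were counted. Of 4956 genes with several probe sets, 2 had unequal changes at an adjusted p of 0.05 (limma's diffSplice F test), which is 0.0404%, and 132 had an unadjusted p below 0.05. Both were genes that fell. For Cd36 (adjusted p = 0.0491) the 3 probe sets changed by -3.24, -2.22 and -0.68 on the log2 scale. The middle one read 24.1, 92.5 and 64.8 untreated and 2.6, 1.3 and 0.5 in the CstF-64 group. For Lpar1 (adjusted p = 0.0491) the changes were -1.59, -1.34 and -0.35. All 3 probe sets of either gene pointed the same way, and the one with the smallest change had both group means at or below background, as had the one of Lpar1 at -1.34. The next autosomal genes by p did not pass the threshold. They were Rbpms (adjusted p = 0.184), with changes of 3.06, 1.96, 1.42 and 1.31, Egfl7 (0.350), a secreted protein of endothelium, and Foxm1 (0.351), a transcription factor of mitosis. In Foxm1 1 probe set read 162.8, 169.8 and 121.1 untreated and 81.2, 44.1 and 70.8 in the CstF-64 group (log2 -1.09), while the other 3 changed by -0.21, -0.03 and 0.01. Both calls were lost when probe sets below background were left out (0 of 2952 genes). Without CstF-64 array 1 only Rbpms was called (adjusted p = 0.0072), without untreated array 1 only Cd36, and without any other single array none. The size of a fall cannot be read reliably on a probe set at background, and where the probes lie in each mRNA is not known here. Unequal changes are therefore given as they are.

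**Figure D2:**
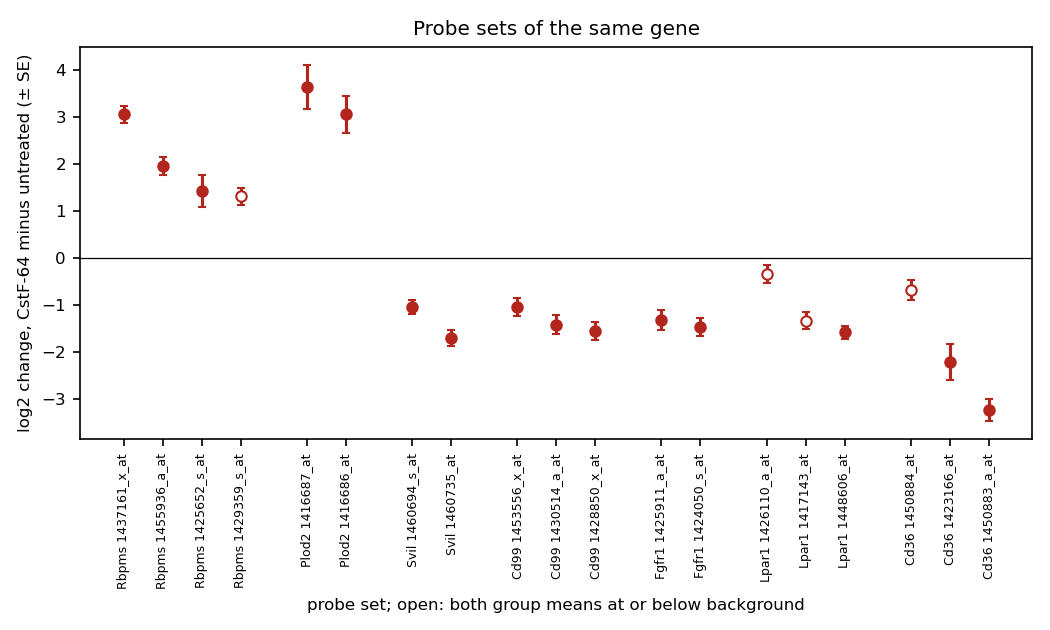
Log2 change with its standard error for each probe set of Rbpms, Plod2, Svil, Cd99, Fgfr1, Lpar1 and Cd36, called genes with several probe sets. Filled points are probe sets with a group mean above background and open points those with both group means at or below it. All probe sets of a gene lie on the same side of 0, and in Cd36 and Lpar1 the changes nearest to 0 (-0.68 and -0.35) are open points.

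Of the 37 pathway lists 9 held a called gene, all named above, and 28 held none. With 0.092% of autosomal genes called higher and 0.142% lower, a list without a call says little about its pathway. Pathways in which LPS is known to act on macrophages were among the latter. Of 34 cytokines and chemokines, 42 interferon-stimulated genes and 21 genes of NF-kB signalling none was called in either direction. Their medians were 0.01, 0.16 and 0.18 beside 0.01 for all autosomal genes. The interferon-inducible Epsti1, called higher above, is not a member of the interferon list. Without CstF-64 array 1 the median of the interferon-stimulated genes was 0.02 and that of the NF-kB genes 0.19. In the NF-kB list 18 of 21 genes were above 0, against 6217 of all 11957 autosomal genes. Cxcl16, a membrane-bound chemokine that also takes up oxidised lipoprotein, read 278.3, 454.2 and 416.9 untreated and 182, 149.2 and 151.4 in the CstF-64 group, without overlap (log2 -1.16, adjusted p = 0.155). Growth genes were likewise without a call. Of 35 mitosis genes the median was -0.04, and of 33 DNA replication genes 28 were below 0 with a median of -0.25 (-0.07 and -0.35 without CstF-64 array 1). In the latter list the polymerase subunits Pold1 (log2 -0.51, adjusted p = 0.464) and Pole (-0.65, 0.512) had the smallest p. Of 26 genes of glycolysis and hypoxia 24 were above 0 (median 0.26, and 0.51 without CstF-64 array 1). Vegfa, a hypoxia-induced growth factor of blood vessels, read 178.6, 177 and 197.6 untreated and 209.3, 487.3 and 534.5 in the CstF-64 group (log2 1.00, adjusted p = 0.704). Among 43 genes of amino acid transport and stress responses the median was 0.12 (0.22 without CstF-64 array 1). Herpud1, an endoplasmic reticulum stress protein, read 192.7, 185.8 and 174.5 against 345.9, 290.3 and 292.7 (log2 0.71, adjusted p = 0.105). Ddit3, the stress factor CHOP, read 118, 53.5 and 62.1 against 149.1, 257.6 and 227.6 (log2 1.34, adjusted p = 0.147). Of 26 genes of cholesterol synthesis 21 were below 0 (median -0.14, and -0.10 without CstF-64 array 1). Of 6 histone mRNA processing factors and 24 proteins that bind AU-rich mRNA none was called.

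CstF-64 array 1 stood apart in particular genes. Among autosomal probe sets 463 on array 1 differed by more than 1 log2 unit from the mean of the other 2 arrays of its group, against 139 and 112 on CstF-64 arrays 2 and 3 and 80 to 177 on the untreated arrays. Of 7759 autosomal genes above background, 45 were more than 1 log2 unit above the untreated mean on both arrays 2 and 3, and 15 of these were so on array 1 as well. Below the untreated mean there were 33 such genes, 11 of them also on array 1. The 8 genes with the widest gap are given as a description, without a test. Array 1 was the high one for Il1rn, the interleukin-1 receptor antagonist, which read 216.1, 395.2 and 355.7 untreated and 1265.1, 94.7 and 97.2 on CstF-64 arrays 1 to 3. It was also the high one for Ccl2, the monocyte chemoattractant, with 26.5, 40.1 and 50.4 untreated and 354.4, 53.9 and 34 in the CstF-64 group. Tfrc, the transferrin receptor, read 353.9, 973.2 and 317.9 against 1618.4, 295.5 and 281.2. In these genes array 1 lay above the untreated arrays and arrays 2 and 3 near or below them, as they did in Pdpn, the mucin-type membrane protein podoplanin (26.4, 40.2 and 70.6 against 213.3, 40 and 24.3).

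Arrays 2 and 3 were the high ones for the other 4 genes. Adm, the vasodilator peptide adrenomedullin, read 90.6, 142.9 and 339.1 untreated and 86.5, 898.7 and 952.9 in the CstF-64 group. Selenbp1, a selenium-binding methanethiol oxidase, read 284.7, 205.1 and 535.2 against 190.8, 2087 and 2064.8. Egln3, a prolyl hydroxylase that marks the hypoxia-inducible factor for degradation, read 56.5, 26.1 and 57.1 against 21.6, 185.2 and 178.3. Adm and Egln3 are known to be induced by hypoxia. Fgf11, an intracellular fibroblast growth factor homologue, read 128.1, 109.2 and 238.3 against 52, 334 and 319.4. Array 1 was the lowest of all 6 arrays for these 4 genes. Untreated array 3 was the highest of its group for all 4, for Egln3 only narrowly (57.1 against 56.5).

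The same split was seen in the means of some lists. The mean deviation of the 26 glycolysis and hypoxia genes was -0.14, -0.11 and 0.25 on untreated arrays 1 to 3 and -0.17, 0.61 and 0.59 on CstF-64 arrays 1 to 3. Array 1 lay below both other CstF-64 arrays in 22 of the 26 genes, against 38.2% of all autosomal genes. The DNA replication genes went the other way, with 0.04 on array 1 and -0.33 and -0.34 on arrays 2 and 3, and array 1 lay above both in 25 of 33 genes (39.5% of all). Cytokines and chemokines were at 0.41, -0.06 and -0.17 and interferon-stimulated genes at 0.31, 0.05 and 0.09 on CstF-64 arrays 1 to 3. The NF-kB genes were at 0.19, 0.21 and 0.18, with array 1 above both in 10 and below both in 7 of 21 genes. The matrix and protease genes were at 0.40, 0.30 and 0.30, and array 1 lay above both in 19 of 34 genes (39.5% of all). The list also holds Plod2, in which array 1 was the lowest. What set array 1 apart was not tested.

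**Figure D3:**
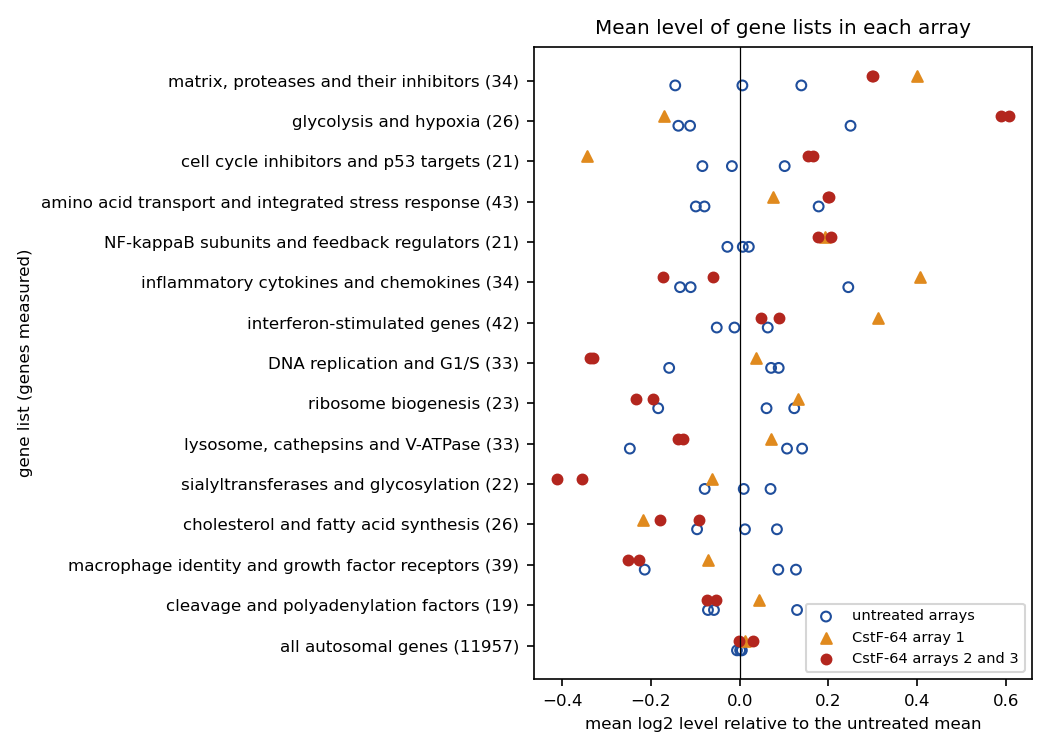
Mean log2 level of the genes of 14 lists, and of all autosomal genes, on each untreated array (open circles), on CstF-64 array 1 (triangles) and on CstF-64 arrays 2 and 3 (filled circles), relative to the untreated mean, with the number of genes measured in brackets. Arrays 2 and 3 lie close together in most lists shown, and array 1 lies apart from them in glycolysis and hypoxia (-0.17 against 0.61 and 0.59) but not in NF-kB genes.

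**Figure D4:**
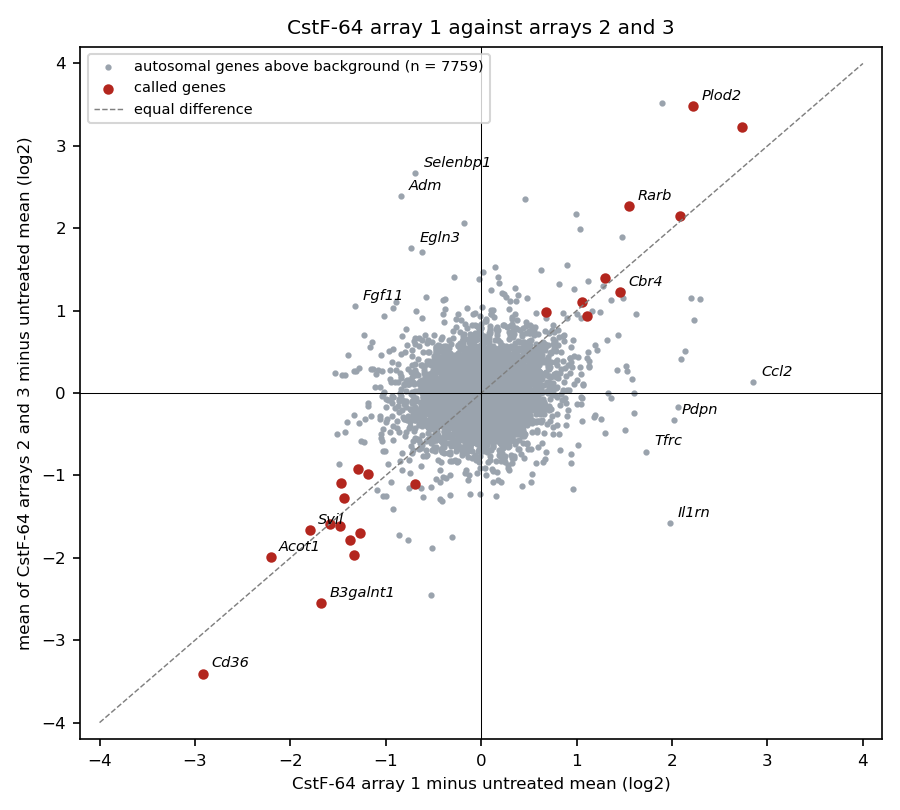
Log2 difference from the untreated mean for the mean of CstF-64 arrays 2 and 3 (vertical) against CstF-64 array 1 (horizontal), for 7759 autosomal genes above background, with the called genes in red and a dashed line where both are equal. Adm, Selenbp1, Egln3 and Fgf11 lie high and left of 0, Il1rn, Ccl2, Tfrc and Pdpn lie far right and near or below 0. Called genes have the same sign on both axes, some well off the line: Plod2 and Rarb are less raised, and B3galnt1 less lowered, on array 1.

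Leaving array 1 out raised the number of calls from 56 to 110. Of the 110 probe sets called without it 51 were also called with it, 59 were not, and 5 were called only with it. All 56 kept their sign. Of the 59, 51 were autosomal, 27 higher and 24 lower. The following were picked after their values were seen. P4ha2, a prolyl hydroxylase of collagen known to be induced by hypoxia, read 12.4, 12.8 and 39.9 untreated and 107.9, 364.7 and 355.6 in the CstF-64 group (log2 3.52 without array 1, adjusted p = 0.0186). Cytip, an adaptor of immune cells, read 153.2, 108.5 and 185.2 against 126.7, 663.6 and 634.8 on the brighter of its probe sets (log2 2.06 without array 1, adjusted p = 0.0147). Array 1 was among the untreated values for Cytip and between the untreated arrays and arrays 2 and 3 for P4ha2. Dab2, an endocytic adaptor, read 1120.3, 1015.4 and 965.3 against 833.7, 317.1 and 282.5 (-1.74 without array 1, adjusted p = 0.0117). Kitl, the ligand of the receptor Kit, read 241.8, 262.3 and 234.7 against 226.5, 95.2 and 99.6 (-1.23 without array 1, adjusted p = 0.00953). Without array 1, Selenbp1 (log2 2.67, adjusted p = 0.0340) and Il1rn (-1.58, 0.0344) were called as well. These calls rest on 2 CstF-64 arrays. The promoters of P4ha2 and Selenbp1 are shown because both differ between the CstF-64 arrays and both hold the core of a hypoxia response element, ACGTG, searched on both strands of the 250 bases before the start. They lie at chr11:54100674-54100923 and chr3:94932833-94933082, both on the plus strand of GRCm38.p6, from RefSeq, with the match in capitals.
P4ha2: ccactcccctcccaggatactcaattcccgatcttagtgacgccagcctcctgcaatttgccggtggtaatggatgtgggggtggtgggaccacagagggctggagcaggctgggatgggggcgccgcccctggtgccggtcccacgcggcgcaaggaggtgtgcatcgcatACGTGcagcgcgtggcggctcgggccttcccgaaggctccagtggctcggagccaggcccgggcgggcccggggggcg
Selenbp1: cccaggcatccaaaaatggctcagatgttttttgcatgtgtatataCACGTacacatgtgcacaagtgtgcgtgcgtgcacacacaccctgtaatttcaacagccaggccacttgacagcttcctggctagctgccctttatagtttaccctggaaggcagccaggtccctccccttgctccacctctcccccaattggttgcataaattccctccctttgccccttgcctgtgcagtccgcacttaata
The match begins 78 bases before the start of P4ha2 and, on the other strand, 204 bases before that of Selenbp1. The core is short and is held by 5444 of the 32851 windows (16.6%), by 17 of 24 genes of the glycolysis and hypoxia list, by 3 of the 25 called autosomal genes with a window and by 18.5% of 27025 genes. It is a match of letters and not a measured site.

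Set directly against the LPS arrays, the CstF-64 arrays differed in many transcripts. In the same fit 2133 probe sets were higher and 1310 lower on the CstF-64 arrays, together 15.2% of those tested. The split moved with the scaling, to 1249 higher and 2097 lower after median centring, which moved the median log2 difference from 0.05 to -0.10, and to 1586 and 1452 after quantile normalization. All 35 mitosis genes were higher on the CstF-64 arrays than on the LPS arrays. Against the untreated arrays none of them was called on the CstF-64 arrays (median -0.04), whereas their median log2 change from untreated was -2.58 on the LPS arrays. Ube2c, a ubiquitin-conjugating enzyme of mitotic exit, read 1298.1, 1349.4 and 1202.1 on the CstF-64 arrays and 74.9, 103.6 and 84.5 on the LPS arrays (log2 3.69, adjusted p = 7.9e-07). Mki67, the proliferation marker Ki-67 (log2 3.45), and Ccnb2, cyclin B2 (3.35), did the same. Trem2, a lipid receptor of macrophages, read 721.9, 1075 and 924.4 against 8.7, 142.1 and 132.5 (log2 3.53, adjusted p = 0.00624). Lower in the CstF-64 cells were inflammatory products of LPS-treated macrophages. Csf3, the granulocyte colony-stimulating factor, read 40, 25.8 and 6.9 on the CstF-64 arrays and 5257, 2755.5 and 3111.6 on the LPS arrays. It was above background on 1 of the 3 CstF-64 arrays, and no fold is given. Il1b, interleukin-1 beta (log2 -6.08), and Acod1, the enzyme that makes itaconate (-5.96), were above background on all CstF-64 arrays. Several of the genes described above also differed here. Rarb (log2 2.65) and Cbr4 (1.81) were higher on the CstF-64 arrays than on the LPS arrays, and Rgl1 (-3.58), Lgals9 (-2.73) and Lpar1 (-2.30) were lower. Cd36, below background on the CstF-64 arrays, was at least 36.6-fold lower than on the LPS arrays. This comparison shares the CstF-64 arrays with the one above.

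Along the chromosomes, blocks of neighbouring genes were mostly level. In 256 blocks of up to 30 neighbouring autosomal genes above background, the median deviation from the untreated mean was -0.13 to 0.15 on the untreated arrays, which centre on 0 by construction. On the CstF-64 arrays 5 blocks were above 0.15 and 1 below -0.15 on all 3 arrays. On the LPS arrays the numbers were 2 and 29. The far end of chromosome 11 held 3 of the 5. The blocks from Mrpl58 to Srsf2 (0.30, 0.34 and 0.31 on CstF-64 arrays 1 to 3), Sec14l1 to Hgs (0.24, 0.29 and 0.23) and Mrpl12 to Metrnl (0.27, 0.36 and 0.34) lay above 0 alike on the 3 arrays, array 1 included. From Pitpnc1 to the end of the chromosome 102 of 119 genes were above 0, and none was called. On chromosome 14 the block from Ccar2 to Elf1 was higher (0.19, 0.34 and 0.37, 26 of 30 genes above 0, 1 called) and the block from Sugt1 to Fgf14 lower (-0.30, -0.45 and -0.41, 5 of 23 genes above 0). On chromosome 13 the block from Hnrnpk to Mrpl36 was at 0.20, 0.17 and 0.16, and the chromosome as a whole, with 267 genes, at 0.14, 0.09 and 0.09. The blocks were described after their values were seen and were not tested. DNA copy number was not measured, and its part in these shifts was not tested.

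**Figure D5:**
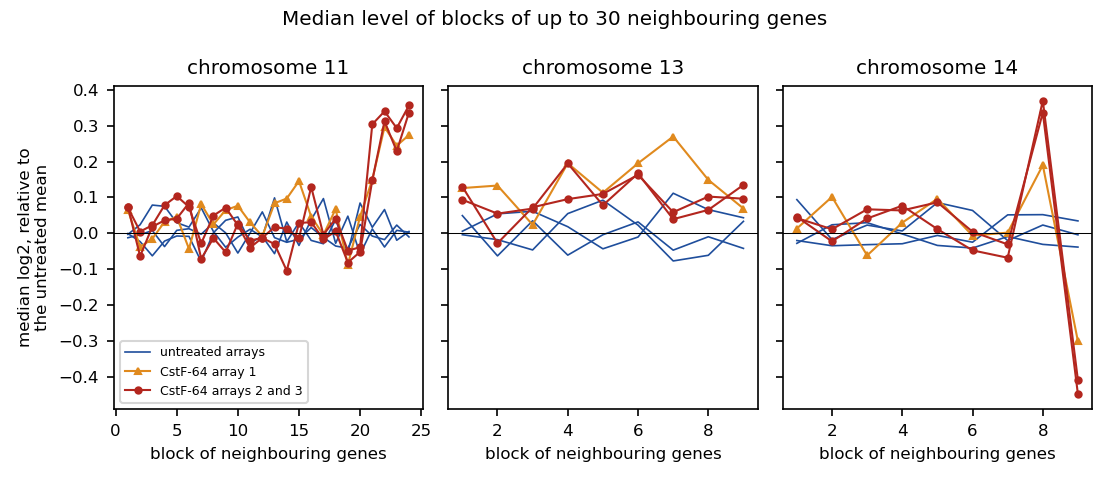
Median log2 level relative to the untreated mean (vertical) in blocks of up to 30 neighbouring genes above background, in gene order along chromosomes 11, 13 and 14, for each untreated array (thin lines), CstF-64 array 1 (triangles) and CstF-64 arrays 2 and 3 (filled circles). The last blocks of chromosome 11 lie above 0.2 on all 3 CstF-64 arrays, and the last 2 blocks of chromosome 14 lie above and below the rest.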

How the data were processed

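The 9 arrays were read from the series' value table, whose deposited values are intensities, 1 per probe set, on a linear scale as judged from their range. Which software made them is not stated in the labels or the table. Their 2% trimmed means lay between 150.05 and 150.06, so they were used as deposited. Precision is limited by having only 3 arrays in each group, and since nothing says that replicates were separate cultures, p-values measure only the spread between these arrays, which may be technical.

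After 64 control probe sets were left out, log2(intensity + 13) of 22626 probe sets was fitted with limma 3.58.1 in R 4.3.3 (all 9 arrays, 1 mean per group, intensity trend, two-sided, Benjamini-Hochberg over all probe sets, threshold 0.05). A fold on this scale understates the change of dim genes. Where a group lay at or below background on every array, "at least" is the geometric mean of the brighter group over 31.2. Platform annotation gave 20380 probe sets 1 gene, 691 several and 1555 none, and only the first were named. The named autosomal genes were up to 15 called rises and 15 falls whose groups do not overlap and whose brighter group exceeds background, up to 3 per list by p, 5 by unequal probe sets, 8 by the gap of array 1, 5 each way against LPS and up to 10 called without any single array. Members and lists were chosen with earlier results of these data known. The code was tested on simulated data. There the test of unequal probe sets missed the recovery limit first set for differences of 1.5 log2 units, and the limit was then moved to a difference of 2, which was recovered nearly always. Unequal changes below 2 log2 units can therefore have been missed. The test also made a few false calls on the simulated data, so the 2 genes called as unequal can be false calls. Alternatives changed the pseudocount, scaling, filter, arrays, weights, trend, replicate block and choice of probe set.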

Additional observations from a re-analysis of the deposited data

How the results depend on the processing

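The 56 calls became 53 with the 6 arrays alone, 59 with a halved or doubled pseudocount, 66 after median centring, 59 after quantile normalization, 55 without the intensity trend, 62 with robust moderation and 65 with probe sets above background only. They became 230 with array weights, 106 higher and 124 lower. Leaving out single arrays gave 18 to 110. The replicate numbers do not pair the arrays: deviations of same-numbered arrays correlated at 0.15, -0.06 and 0.13, and a fit with the replicate number as a block gave 32 calls, 13 higher and 19 lower, 31 of them among the 56. In that fit 10 of the 24 genes called on their brightest probe set with the brighter group above background lost the call. Of these 24 genes, 8 were called under every alternative run and none reversed. Abcd2, Nrgn, Tnfrsf17 and Lamb2, called on their brightest probe set without a group mean above background, are not counted here. None of them was called under every alternative. The count of genes with unequal probe sets, 2, became 0 with the filter on background and 0 to 1 without single arrays.

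Signs turned only in log2 changes that were not called with all arrays. Leaving out single arrays took Il1rn from -1.58 to 0.21, Fgf11 from -0.15 to 1.06, Pdpn from -0.33 to 0.97 and Tfrc from -0.71 to 0.60. Array weights gave -0.10 for Pdpn and -0.55 for Tfrc. Egfl7 became -0.10 with the mean of its probe sets. Cstf2 became 0.00083 without CstF-64 array 1. The cause was not tested.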

Other observations

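Some calls lay outside the autosomal genes. Of 13 Y-linked probe sets 4 were called, all lower. The share called over all probe sets was 0.248%, and of 668 X-linked probe sets 2 were called. Eif2s3y, a translation initiation factor subunit, read 180.3, 125.3 and 141.1 on the untreated arrays and 8.2, 0.7 and 7 on the CstF-64 arrays, at least 4.72-fold lower (log2 -3.16). Kdm5d, a histone demethylase, read 110.6, 88.2 and 61.7 against 19.3, 15 and 12.7, and Uty read 47.7, 59.7 and 72.8 against 13.5, 14.3 and 16.5. On these probe sets, the brightest of each gene, all CstF-64 values were below background and all untreated values above it. On the X chromosome Morc4 was called lower and Gabra3 higher, and Akap2, whose chromosome was not given, was called higher. Of the other calls 5 were on probe sets with no gene name and 2 on probe sets of several genes.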
